A study of Mus musculus with 4 samples.

Results

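The genes described here encode the mouse ATG8 proteins of autophagy and the cargo receptors that bind them. They were taken by symbol from the gene count table: Gabarap, Gabarapl1 and Gabarapl2 of the GABARAP branch, Map1lc3a and Map1lc3b of the LC3 branch, and the receptors Sqstm1, Nbr1, Optn, Calcoco1 and Tax1bp1. All 10 were found among 27179 genes in the table, and all 10 were among the 12675 genes with enough counts to be tested. B16F10 is a pigmented mouse melanoma cell line, labelled as wild type and of skin origin. RNA was sequenced from cells cultured for 6 h with 0.01% plain olive oil (2 libraries) or with 0.01% ozonated olive oil (2 libraries), in medium with fetal bovine serum. Cells without oil were not analysed here, so each value compares 1 oil with the other. Whether the libraries of a group came from separate cultures is not stated, so p-values cover the spread between these samples alone, and that spread may be technical.

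ATG8 proteins are small ubiquitin-like proteins that are cut at their end and joined to a lipid of the autophagosome membrane. There they help the membrane to grow, to close and to fuse with the lysosome, and they hold receptors that carry a short ATG8-binding stretch. A cargo receptor binds ubiquitin or another mark on its cargo with one end and the ATG8 protein with another, and most receptors are degraded together with what they bring. RNA levels therefore do not give the rate of autophagy. Neither that rate nor the amount of protein was measured.

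Total counts ran from 22539486 to 30038784 per library, with ozonated oil library 2 the deepest. The melanocyte markers Tyr, Tyrp1, Dct, Pmel, Mlana, Mitf and Sox10 were detected in every library, with a summed level of 20460 to 25160 CPM (a gene's count per 1000000 reads of the library total; for single genes, below, of the scaled total). A list of 10 markers of immune, epithelial, fibroblast and endothelial cells summed to 3.34 to 16.2 CPM of the total. Cdh5 was at 0 in all 4 libraries and Ptprc in 3, but others had reads. Krt14 had 171 and 20 counts with plain oil and 6 and 94 with ozonated oil. Krt5 had 53, 6, 0 and 54 counts and Cd68 65, 20, 89 and 55, in the same order. The sum of the list was 16.2 and 3.34 CPM for plain oil and 6.06 and 8.76 CPM for ozonated oil, so the groups overlapped. Values are given here and below in the order library 1, library 2 of each group. In bulk RNA, fewer cells of a type and less RNA per cell cannot be told apart.

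The members were chosen by their CPM in these same 4 libraries, so their differences are given as a description and were not tested. Across the whole table, the quasi-likelihood test of edgeR with Benjamini-Hochberg adjustment called 0 of 12675 genes at an adjusted p below 0.05 (0.00% of genes), and the smallest adjusted p was 0.166. The unadjusted p was below 0.05 for 1245 genes, and DESeq2 called 271 genes at an adjusted p below 0.05.

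Promoter windows of RefSeq (build GRCm38.p6, 250 bases before to 50 after an annotated start) matched 9 of the 10 members by symbol, with 11 windows in all. That start need not be the outermost of a gene. The Optn window, on the minus strand, ends at 5064367 and lies within the gene, which reaches 5064399. On the plus strand, 1 window of Nbr1 starts at 101552404, within the gene, which starts at 101552107. Likewise 1 window of Tax1bp1 starts at 52713915, within the gene, which starts at 52713692. Map1lc3a had no entry. Shown first are the windows of the 3 members with a log2 change of at least 1, Gabarapl1, Optn and Sqstm1, and of Gabarap, the closest relative of Gabarapl1 in coding sequence. Capitals mark TAAACA, a core of forkhead factor sites, and GGGCGG, the GC box bound by SP factors, on either strand (CCGCCC is GGGCGG on the other strand). Both were chosen after the sequences had been seen.
Gabarapl1 (chr6:129532942-129533241, plus strand): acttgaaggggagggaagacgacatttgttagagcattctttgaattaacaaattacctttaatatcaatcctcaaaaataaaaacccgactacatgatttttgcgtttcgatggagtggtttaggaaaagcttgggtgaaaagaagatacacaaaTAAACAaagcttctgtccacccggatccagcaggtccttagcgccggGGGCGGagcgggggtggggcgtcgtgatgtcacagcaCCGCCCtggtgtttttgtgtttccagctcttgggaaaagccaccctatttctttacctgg
Gabarap (chr11:69991120-69991419, plus strand): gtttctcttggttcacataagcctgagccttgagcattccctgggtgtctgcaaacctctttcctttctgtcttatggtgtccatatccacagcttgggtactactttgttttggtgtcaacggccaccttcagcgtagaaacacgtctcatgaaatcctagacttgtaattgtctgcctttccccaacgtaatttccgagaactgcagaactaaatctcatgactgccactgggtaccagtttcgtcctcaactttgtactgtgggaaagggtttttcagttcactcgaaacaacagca
Optn (chr2:5064068-5064367, minus strand): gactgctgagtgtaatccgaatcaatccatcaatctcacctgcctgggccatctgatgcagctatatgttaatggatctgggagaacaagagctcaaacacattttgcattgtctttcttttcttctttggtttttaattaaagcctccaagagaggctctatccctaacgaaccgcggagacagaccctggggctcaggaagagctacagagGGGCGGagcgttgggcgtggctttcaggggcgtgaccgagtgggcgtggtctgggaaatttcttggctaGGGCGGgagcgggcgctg
Sqstm1 (chr11:50210771-50211070, minus strand): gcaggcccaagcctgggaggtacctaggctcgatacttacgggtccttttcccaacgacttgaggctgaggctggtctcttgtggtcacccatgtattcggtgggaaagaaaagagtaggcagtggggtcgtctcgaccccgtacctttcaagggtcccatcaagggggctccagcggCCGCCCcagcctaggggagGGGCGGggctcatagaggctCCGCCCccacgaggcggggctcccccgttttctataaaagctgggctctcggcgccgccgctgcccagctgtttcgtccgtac
The Gabarapl1 window holds TAAACA starting 94 bases upstream of the start, and GC boxes that start 47 and 10 bases upstream. TAAACA was in 1 of the 11 windows of the members and in 13.4% of 32817 promoter windows of all genes. GC boxes were in 8 of the 11 windows and in 35.6% of all windows. By gene, 8 of the 9 had a window with a GC box, with Gabarap the exception. For Nbr1 the GC box was only in the window that lies within the gene. The E-box CACGTG, its extension TCACGTGA that TFEB and MITF family factors bind, the forkhead site GTAAACA and the CHOP-ATF site TGATGNAA were searched on both strands, and each was in 0 of the 11 windows. In all windows their shares were 7.1%, 1.0%, 3.6% and 4.0%. The antioxidant response element TGACNNNGC was in 2 windows, of Map1lc3b and Tax1bp1, and in 12.4% of all windows. The Tax1bp1 match was in the window that lies within the gene. TCACGTGA contains CACGTG and GTAAACA contains TAAACA, so these pairs overlap. A match is a run of letters and not a measured binding site, and sites outside the window were not searched.

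Gabarapl1, which encodes the ATG8 protein also called GEC1, had the largest fold difference of the 10 genes, although without ozonated oil library 1 Sqstm1 came first (log2 change 1.43 against 1.32 for Gabarapl1). It lies on chromosome 6 from 129533192 to 129542331 (Entrez gene 57436). With plain oil it was at 63.8 and 55.2 CPM, and with ozonated oil at 151 and 152 CPM. The groups were far apart, and the libraries given ozonated oil were almost level with each other. The means were 59.5 ± 6.08 and 151.5 ± 0.375 CPM (SD, n = 2 per group), 2.55-fold, or 1.35 ± 0.17 on the log2 scale (log2 change ± standard error). Among all tested genes, 136 had a larger log2 change. Leaving out any 1 library gave log2 changes of 1.25 to 1.46. The antisense gene 1700101I11Rik overlaps 93 bases of Gabarapl1 and had 1, 8, 14 and 29 counts in the same order of libraries, against 1506, 1315, 3449 and 4258 for Gabarapl1.

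Gabarap, the founding gene of the branch, was at 32.0 and 37.5 CPM with plain oil and 40.9 and 57.4 CPM with ozonated oil. Its log2 change was 0.50 (standard error 0.23). The groups did not overlap, but ozonated oil library 1 was only 1.09-fold the higher plain oil value. Gabarapl2, also called GATE-16 and known for work in Golgi transport as well as autophagy, was at 43.0 and 46.8 CPM with plain oil and 47.4 and 68.7 CPM with ozonated oil. Ozonated oil library 1 was thus level with the plain oil libraries and library 2 stood above them. The log2 change of Gabarapl2 was 0.37 (standard error 0.23), and 0.07 without ozonated oil library 2; that of Gabarap was 0.23 without it. Gabarapl2 has 6 processed pseudogenes in GENCODE M21 that match its coding sequence at 90% identity or more, the closest at 99.4%, and the sources used here do not say how reads matching several places were counted, so its level is uncertain.

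Map1lc3b, the LC3 gene most used as a marker of autophagosomes, was at 102 and 103 CPM with plain oil and 112.0 and 144 CPM with ozonated oil. Its log2 change was 0.32 (standard error 0.19), the smallest of the 10, and 0.12 without ozonated oil library 2. It has 5 processed pseudogenes of that kind, the closest at 99.7% identity, so the same doubt applies to it. The gene Zcchc14 on the other strand overlaps 64 of its bases. Map1lc3a, which encodes LC3A, was the lowest member in CPM, at 15.8 and 10.3 CPM with plain oil and 19.6 and 17.0 CPM with ozonated oil. The groups were close, and the plain oil libraries differed from each other by more than the lower ozonated oil library differed from the higher plain oil one. With 246 counts in its lowest library, counting alone gives a relative SD of 6.38% there. The log2 change of Map1lc3a was 0.49 (standard error 0.28), and it was 0.83 without plain oil library 1 and 0.21 without plain oil library 2.

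**Figure D1:**
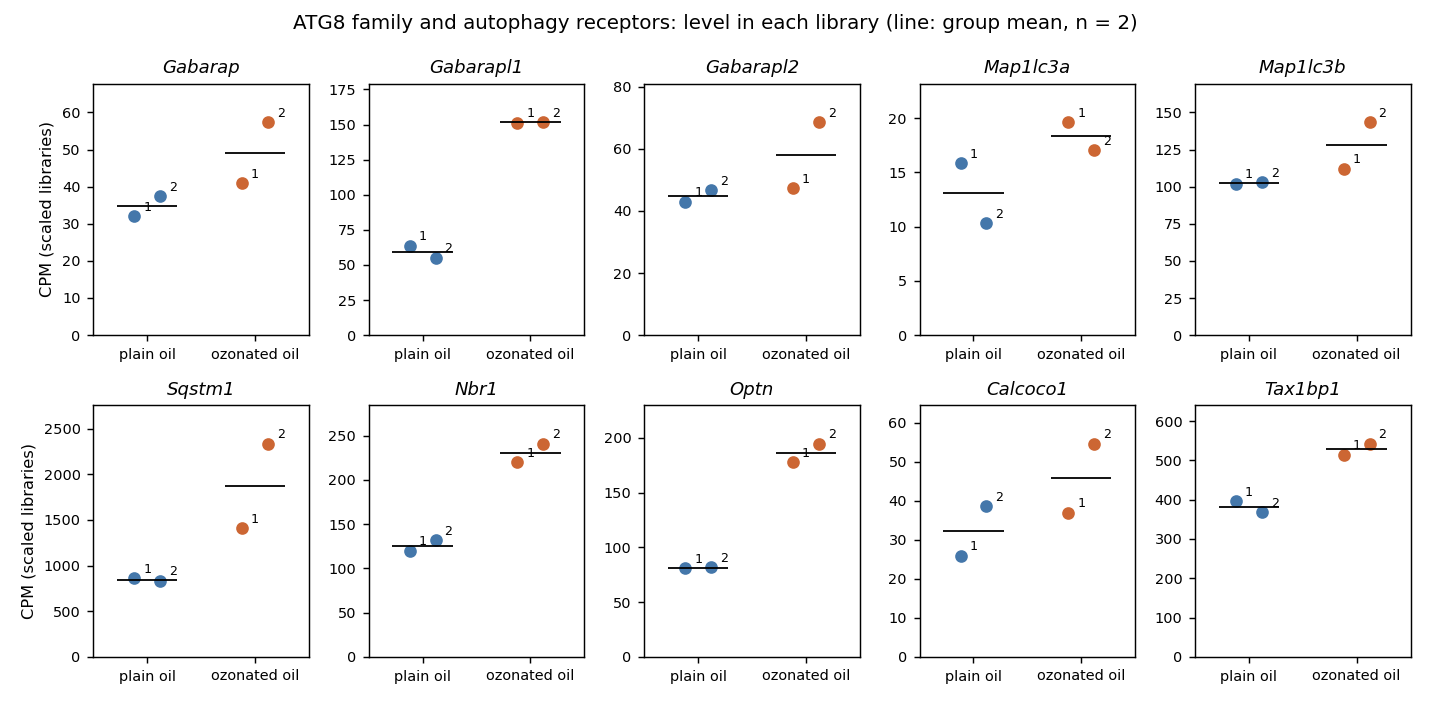
Level of each of the 10 genes in CPM on scaled library sizes (vertical axes, each from 0) in the 2 plain oil libraries (blue) and the 2 ozonated oil libraries (orange), numbered by replicate, with the group mean as a line. Gabarapl1, Optn, Nbr1 and Tax1bp1 have groups that do not overlap, Tax1bp1 the least apart of these, and ozonated oil libraries within 1.10-fold of each other. For Sqstm1, Gabarap, Gabarapl2, Map1lc3b and Calcoco1, ozonated oil library 2 is at 1.28-fold to 1.66-fold library 1.

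The make-up of the ATG8 family was then taken within each library, which needs no scaling between libraries. Gabarapl1 gave 24.9% of the reads of the 5 ATG8 genes in plain oil library 1 (exact binomial 95% interval 23.8% to 26.0%, counting error only) and 21.9% in library 2 (20.8% to 22.9%). With ozonated oil its share was 40.8% (39.7% to 41.8%) and 34.6% (33.8% to 35.5%). These shares rest on 6056, 6018, 8464 and 12303 reads. In both plain oil libraries Map1lc3b had the most reads of the family, at 39.7% and 40.7%, and in both ozonated oil libraries Gabarapl1 did, with Map1lc3b at 30.2% and 32.8%. The ratio of Gabarapl1 to Map1lc3b reads was 0.626 and 0.537 with plain oil and 1.35 and 1.06 with ozonated oil.

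Taken as branches, the 3 GABARAP genes held 54.1% and 55.2% of the family's reads with plain oil and 64.5% and 63.4% with ozonated oil. Their summed level was 139 and 139 CPM with plain oil and 240 and 278 CPM with ozonated oil, against 118, 113, 132 and 161 CPM for the LC3 branch in the same order. Both branches had higher sums with ozonated oil. The 4 other ATG8 genes summed to 193 and 198 CPM with plain oil and 220 and 287 CPM with ozonated oil. The shares of Gabarap and Gabarapl2 within the family were 12.5% to 14.8% and 16.7% to 18.5% with plain oil, and 11.01% to 13.1% and 12.8% to 15.7% with ozonated oil. Per kilobase of the longest coding transcript, the share of Gabarapl1 was 25.5%, 22.6%, 41.2% and 35.2%, close to its share of reads.

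**Figure D2:**
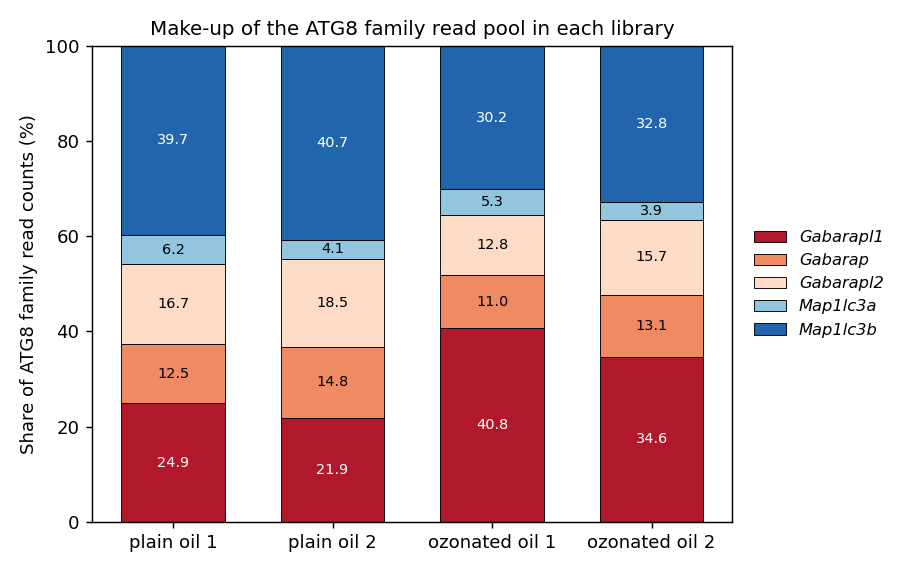
Share of the summed read counts of the 5 ATG8 genes (vertical axis, percent) that each gene held in each of the 4 libraries, with reds for the GABARAP branch and blues for the LC3 branch. Gabarapl1 holds 24.9% and 21.9% with plain oil and 40.8% and 34.6% with ozonated oil, and Map1lc3b is the largest part in the plain oil libraries alone.

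The coding sequences of the family place Gabarapl1 next to Gabarap. They were 74.6% identical over 351 aligned bases, while Gabarapl1 and Gabarapl2 shared 63.5% and the GABARAP genes shared 53.0% to 58.5% with the LC3 genes. Map1lc3a and Map1lc3b were 76.3% identical. Beside these identities, the ratio of ozonated to plain oil levels was 2.55 for Gabarapl1 and 1.42 for its nearest relative Gabarap, and 1.40 for Map1lc3a and 1.25 for Map1lc3b.

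Optn encodes optineurin, a receptor for bacteria, damaged mitochondria and protein aggregates. Its log2 change was close to that of Sqstm1, and which of the pair was larger depended on the library left out. It lies on chromosome 2 from 5020521 to 5064399 (Entrez gene 71648). Its level was 80.7 and 81.9 CPM with plain oil and 177.5 and 194.5 CPM with ozonated oil. The groups were far apart beside the spread within each, with means of 81.3 ± 0.881 and 186 ± 12.03 CPM (SD, n = 2 per group). That is 2.29-fold, or 1.19 ± 0.17 on the log2 scale, and leaving out any 1 library gave 1.12 to 1.22.

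Sqstm1 encodes p62, which gathers ubiquitin-marked proteins into condensates and also binds KEAP1, the inhibitor of the antioxidant factor NRF2. It lies on chromosome 11 from 50200152 to 50210820 (Entrez gene 18412). Its level was 861 and 833 CPM with plain oil and 1407 and 2334 CPM with ozonated oil. Both ozonated oil libraries were above the plain oil libraries, but library 2 was at 1.66-fold library 1, so the spread within that group was wide. The means were 847 ± 19.6 and 1870 ± 656 CPM (SD, n = 2 per group), 2.21-fold, or 1.14 ± 0.30 on the log2 scale. The log2 change was 0.73 without ozonated oil library 2 and 1.43 without library 1. Ozonated oil library 2 was also the deepest library and had the highest level of the stress gene Ddit3, at 153 CPM against 51.5 CPM in library 1 and 15.97 and 28.2 CPM with plain oil. The part of depth or of that library in the Sqstm1 value was not tested.

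Nbr1, a receptor that works with p62 in forming ubiquitin condensates, was at 120 and 132 CPM with plain oil and 219.7 and 241 CPM with ozonated oil. Its log2 change was 0.87 (standard error 0.18), with 0.80 to 0.94 when any 1 library was left out. The ratio of Sqstm1 to Nbr1 reads was 7.19 and 6.33 with plain oil and 6.40 and 9.69 with ozonated oil. The pair therefore kept much the same ratio in 3 libraries and departed from it in ozonated oil library 2, where Sqstm1 stood higher.

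Tax1bp1, a receptor that p62 condensates draw in to recruit the autophagy start complex, was at 395 and 367 CPM with plain oil and 514 and 542 CPM with ozonated oil. The 2 groups were tight and apart, by less than for Optn or Nbr1. The log2 change of Tax1bp1 was 0.47 (standard error 0.19). Calcoco1, a receptor for parts of the endoplasmic reticulum and the Golgi, was at 26.0 and 38.6 CPM with plain oil and 37.0 and 54.6 CPM with ozonated oil. It was the single member whose groups overlapped, and library 2 was at 1.49-fold library 1 with plain oil and at 1.48-fold with ozonated oil. The log2 change of Calcoco1 was 0.51 (standard error 0.29), and it ranged from 0.19, without ozonated oil library 2, to 0.82, without plain oil library 2.

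Counted together, 10 of the 10 members had a higher mean with ozonated oil, where 54.0% of all tested genes did. For 9 of 10 the lower ozonated oil value exceeded the higher plain oil value, against 19.9% of all tested genes, and under scaling by total counts this number was 7. A log2 change of at least 1 was found for 3 members (Gabarapl1, Optn and Sqstm1), against 2.48% of all tested genes. Nothing is read from these counts, since the choice of members used the same contrast. The median log2 change was 0.50 over the 10 members and 0.035 over all tested genes, and by role it was 0.50 in the GABARAP branch, 0.40 in the LC3 branch and 0.87 in the receptors. All 10 were also higher with ozonated oil under RLE scaling and under total count scaling.

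**Figure D3:**
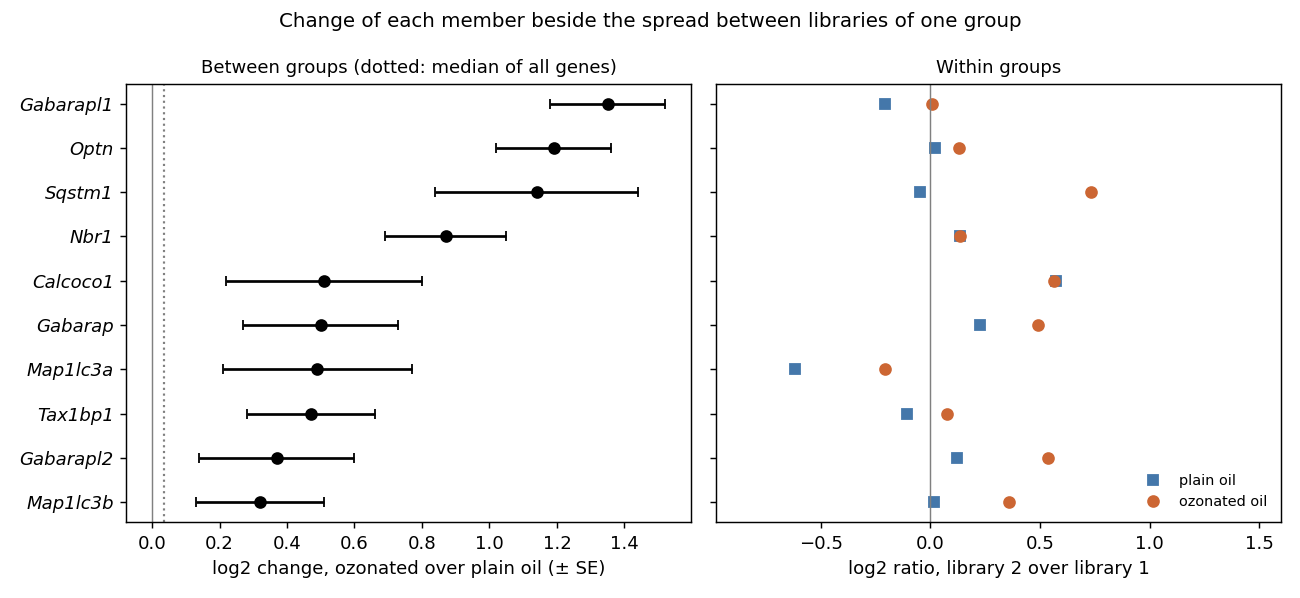
Left, log2 change of ozonated over plain oil for each gene with its standard error from the edgeR fit, beside the median of all tested genes (dotted, 0.035). Right, log2 ratio of library 2 over library 1 within the plain oil group (squares) and within the ozonated oil group (circles): Sqstm1, Calcoco1, Gabarapl2 and Gabarap differ most between the ozonated oil libraries, and Gabarapl1, Tax1bp1, Optn and Nbr1 least.

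The members fell into 3 patterns by how the libraries of a group compared. Gabarapl1, Optn, Nbr1 and Tax1bp1 had ozonated oil libraries within 1.10-fold of each other and lowest ozonated oil values that were 2.37-fold, 2.17-fold, 1.67-fold and 1.3-fold the highest plain oil value. Sqstm1, Map1lc3b, Gabarapl2 and Gabarap had plain oil libraries within 1.17-fold of each other, and ozonated oil library 2 at 1.28-fold to 1.66-fold library 1. Map1lc3a and Calcoco1, the members with the lowest levels per transcript length, differed as much within the plain oil group as between groups. These patterns were described after the values had been seen.

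Levels per kilobase of the longest coding transcript allow the genes to be set in order. With plain oil Sqstm1 was the highest, at 317 ± 7.34 CPM per kb (SD, n = 2), then Tax1bp1 at 116 ± 6.01 and Map1lc3b at 38.9 ± 0.261. Below them were Gabarapl1 (32.7 ± 3.34 CPM per kb) and Optn (31.1 ± 0.337), whose libraries overlapped. Gabarapl2, Nbr1 and Gabarap followed at 26.8 ± 1.61, 26.3 ± 1.74 and 25.7 ± 2.84 CPM per kb, and neighbours among them did not differ beyond their spread. Map1lc3a and Calcoco1, at 11.8 ± 3.51 and 10.9 ± 3.01 CPM per kb, also overlapped.

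With ozonated oil the first places were kept by Sqstm1 at 699.6 ± 245 CPM per kb and Tax1bp1 at 161 ± 6.11. Gabarapl1 at 83.2 ± 0.206 and Optn at 71.1 ± 4.601 CPM per kb came next, both above Map1lc3b in every library. Map1lc3b (48.5 ± 8.49 CPM per kb) overlapped with Nbr1 (48.1 ± 3.14), Gabarap (36.4 ± 8.66) with Gabarapl2 (34.6 ± 8.97), and Map1lc3a (16.5 ± 1.66) with Calcoco1 (15.4 ± 4.21). Summed per transcript length, the receptors were at 3.69 and 3.69 times the ATG8 genes with plain oil and at 4.01 and 4.99 times with ozonated oil. Within the receptors, Sqstm1 held 58.1% and 57.4% of reads with plain oil and 59.7% and 69.3% with ozonated oil, and Tax1bp1 26.7%, 25.3%, 21.8% and 16.1% in the same order.

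Genes with the most similar course over the 4 libraries were sought among 7549 tested genes with a mean of at least 20 CPM, by the distance between log2 levels centred on each gene's mean. Nearest to Gabarapl1 were Cpeb2, an mRNA-binding protein, at a distance of 0.199 (log2 units over the 4 libraries), Fosl2, an AP-1 transcription factor, at 0.227, and Gla, a lysosomal galactosidase, at 0.230. Cpeb2 was at 22.3 and 21.5 CPM with plain oil and 58.7 and 50.2 CPM with ozonated oil. Nearest to Sqstm1 were the ubiquitin pseudogene Ubb-ps at 0.195, Bsdc1 at 0.208 and Rit1, a small GTPase, at 0.259. Like Sqstm1 these had ozonated oil library 2 above library 1, by 1.37-fold, 1.59-fold and 1.71-fold. Reads of Ubb-ps may belong to its parent gene. With 4 libraries, closeness of this kind is a description only.

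The enzymes that process ATG8 proteins and join them to lipid had values in both directions. Of 11 tested genes of this list, 0 passed the edgeR test over all genes in either direction, 7 had higher values and 4 lower, and the median log2 change was 0.11 beside 0.035 over all genes. Atg12, the ubiquitin-like partner of ATG5, was at 34.7 and 40.9 CPM with plain oil and 45.8 and 64.3 CPM with ozonated oil (edgeR adjusted p = 0.520). The ATG4 proteases that cut ATG8 proteins, Atg4a, Atg4b, Atg4c and Atg4d, had log2 changes of 0.37, 0.12, 0.25 and -0.15, with standard errors of 0.19 to 0.34. Atg7 and Atg3, the enzymes that activate and transfer ATG8 proteins, had log2 changes of -0.17 and -0.13. The groups overlapped for Atg3, at 87.4 and 91.5 CPM with plain oil and 69.8 and 93.7 CPM with ozonated oil. With any 1 library left out the list median ran from -0.21, without ozonated oil library 2, to 0.21, without ozonated oil library 1, and it was 0.00 without plain oil library 1 and 0.17 without plain oil library 2.

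Other cargo receptors were led by the mitochondrial pair Bnip3 and Bnip3l, which are also targets of the hypoxia response. Bnip3 was at 44.7 and 147 CPM with plain oil and 296 and 456 CPM with ozonated oil, and Bnip3l at 62.3 and 103 CPM and 145 and 213 CPM. Both had groups that did not overlap and a wide spread within each group, with log2 changes of 1.97 (standard error 0.56) and 1.12 (standard error 0.31). Neither passed, with edgeR adjusted p = 0.333 and 0.329. Groups did not overlap for 11 higher and 4 lower genes of this list. Among the 12675 tested genes, 2526 were higher and 2541 lower without overlap. For Retreg1, Sec62, Tex264, Retreg2, Fundc1 and Retreg3 the lower ozonated oil value was only 1.003-fold to 1.043-fold the higher plain oil value. For Ccpg1, Rtn3, Tollip, Bnip3l and Bnip3 it was 1.088-fold to 2.007-fold. The count for this list was not repeated under total count scaling, which lowered that of the 10 members from 9 to 7. Nothing is read from it. Of 18 tested genes in this list of 20, 0 passed in either direction, 2 had an unadjusted p below 0.05, both higher (4.54% of all tested genes were), 12 had higher and 6 lower values, and the median log2 change was 0.21 (0.10 without ozonated oil library 2). Tollip, a receptor for protein aggregates, had a log2 change of 0.31 and the endoplasmic reticulum receptor Retreg3 one of 0.39. Calcoco2 had 0 counts in all 4 libraries, and Stbd1, a glycogen receptor, had 6 to 16 counts. Neither was tested.

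**Figure D4:**
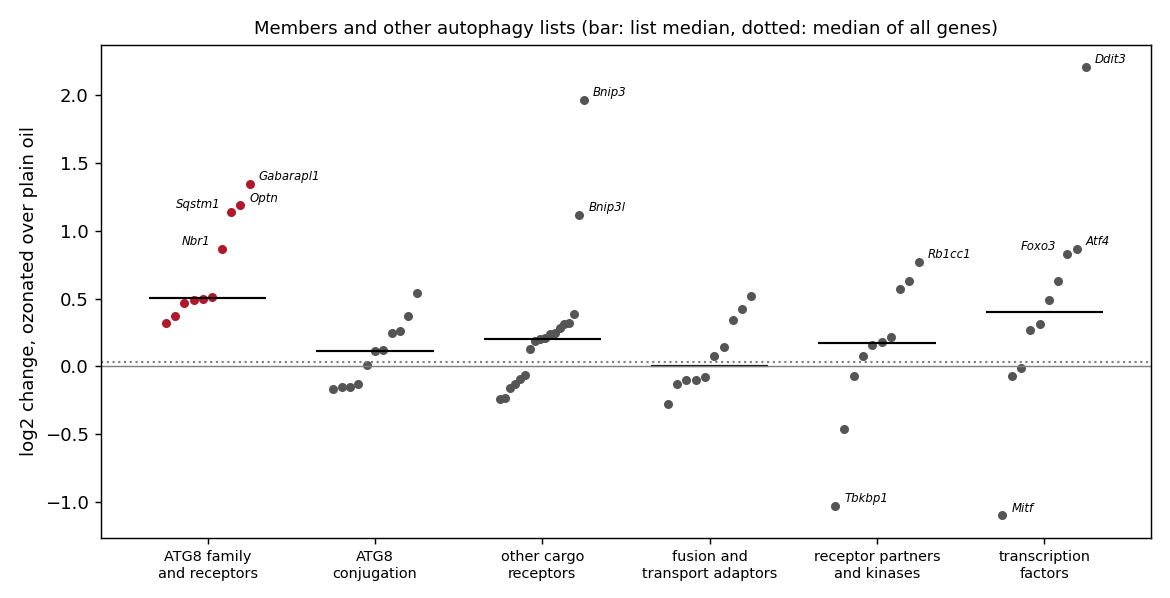
Log2 change of ozonated over plain oil (vertical axis) for the 10 genes (red) and for each tested gene of 5 further lists (grey), with a bar at each list's median and a dotted line at the median of all tested genes (0.035). Genes at 0.75 or more in either direction are named, and 0 of the grey genes passed the edgeR test over all genes.

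Partners of the receptors also had values in both directions. Rb1cc1 encodes FIP200, the scaffold of the autophagy start complex that p62 and TAX1BP1 bind, and it was at 34.6 and 35.4 CPM with plain oil and 53.9 and 65.3 CPM with ozonated oil. Tbk1, the kinase that phosphorylates optineurin and p62, was at 38.5 and 44.8 CPM and 59.5 and 69.3 CPM, and Traf6, a ubiquitin ligase that binds p62, at 41.3 and 44.9 CPM and 65.5 and 62.5 CPM. For these 3 genes the groups did not overlap, with log2 changes of 0.77, 0.63 and 0.57. Over the 10 partners, groups without overlap were found for 5 higher and 3 lower genes. Among the 12675 tested genes they were found for 2526 higher and 2541 lower genes. In the other direction, Tbkbp1, an adaptor of TBK1, was at 9.41 and 8.19 CPM with plain oil and 4.08 and 4.53 CPM with ozonated oil, or -1.03 ± 0.28 on the log2 scale. Of these 10 tested partners, 0 passed in either direction (edgeR adjusted p = 0.288 for Rb1cc1, 0.327 for Tbkbp1, 0.347 for Traf6 and 0.348 for Tbk1). The unadjusted p was below 0.05 for 3 higher and 1 lower gene, beside 4.54% and 5.29% of all tested genes. Nothing is read from the counts of this list either, since it was chosen with earlier results of these data known. The median log2 change of this list was 0.17, with 0.11 when plain oil library 1 was left out and 0.06 when ozonated oil library 2 was. Keap1 (0.08) and Nfe2l2, which encodes NRF2 (-0.07), had log2 changes near that of the median gene, with a standard error of 0.17 each.

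Adaptors that link ATG8 proteins to transport and to fusion with the lysosome showed no common direction, with 5 of 10 higher, 5 lower and a median log2 change of 0.00 (-0.09 to 0.16 with any 1 library left out). Of these, 0 passed in either direction. Tbc1d15, a RAB GTPase regulator, had the smallest p of this list, at 41.8 and 48.5 CPM with plain oil and 62.8 and 66.3 CPM with ozonated oil (log2 change 0.52, edgeR adjusted p = 0.422). The SNARE gene Stx17, needed for autophagosome fusion, had a log2 change of -0.28, Rabgap1 one of 0.34 and Mapk8ip1 one of 0.42.

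Transcription factors known to act on autophagy promoters varied in both directions. Tfe3 was at 41.2 and 42.6 CPM with plain oil and 50.6 and 67.2 CPM with ozonated oil, and Tfeb at 16.02 and 20.6 CPM and 17.9 and 27.5 CPM, where the groups overlapped. Mitf, the melanocyte member of the same family, was at 692 and 614 CPM with plain oil and 354 and 253 CPM with ozonated oil, or -1.10 ± 0.24 on the log2 scale. The stress gene Ddit3 had the largest log2 change of this list, 2.21 (standard error 0.54). It was at 15.97 and 28.2 CPM with plain oil and 51.5 and 153 CPM with ozonated oil. Foxo3, a forkhead factor of the fasting response, was at 19.2 and 21.3 CPM and 42.9 and 29.0 CPM, with the higher value in ozonated oil library 1. Atf4, the factor of the integrated stress response, had overlapping groups, at 132 and 415 CPM with plain oil and 279 and 716 CPM with ozonated oil. Of 10 factors 0 passed in either direction, and the smallest edgeR adjusted p was 0.254, that of Mitf. Values were higher for 7 and lower for 3, with a median log2 change of 0.40 that was 0.04 without ozonated oil library 2 and 0.22 without plain oil library 1.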

How the data were processed

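For 27179 genes in 4 libraries the authors deposited raw read counts, whole numbers without normalization. Build mm10 and the tools HISAT2 2.1.0, StringTie 1.3.4d, SAMtools 1.9, bedtools 2.27.1, edgeR, bcl2fastq and FastQC 0.11.7 are named, without their roles, in the submitters' processing notes. What counted the reads, with which annotation and whether by strand, the sources used here do not give, so reads of antisense neighbours may be included. The library kit keeps strand, per the labels' protocols.

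In R 4.3.3, genes were filtered with filterByExpr of edgeR 4.0.16, which left 12675, and libraries were scaled by TMM. Groups were compared with the two-sided quasi-likelihood F-test with group as the only term, adjusted over all genes. Standard errors come from the F statistic, and CPM use scaled library sizes. With 2 against 2, an exact permutation test cannot go below p = 0.333. Libraries of a group differed beyond counting noise (chi-square per degree of freedom 39.3 and 129), so each was counted as 1 sample, though they may still share a culture. The biological coefficient of variation in common to all genes was 0.23. DESeq2 1.42.0 was an alternative, with independent filtering at 0.05.

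Gene positions are from RefSeq GRCm38.p6, the assembly behind mm10, and transcript lengths and pseudogenes from GENCODE M21. The members and lists were chosen with earlier results of these data known. Named genes were the 10 members, the 4 genes of smallest p in each list and any other list gene, and the 3 genes nearest to Gabarapl1 and to Sqstm1.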

Additional observations from a re-analysis of the deposited data

How the results depend on the processing

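The 10 genes were higher with ozonated oil under each of the 10 alternatives run, but sizes moved: without ozonated oil library 2 the log2 change was 0.07 for Gabarapl2 (0.37 with all libraries) and 0.73 for Sqstm1 (1.14), and with total counts it was 0.37 for Tax1bp1 (0.47). The number of genes called at an adjusted p below 0.05, 0 with edgeR, was 4 with no low-count filter, 271 with DESeq2 and 1160 with the replicate number as a block. It ran from 0 to 389 with 1 library left out, at 389 when ozonated oil library 1 was dropped and 3 when library 2 was. Unadjusted calls were 2632 with the replicate block, and 397 to 3143 with 1 library left out (397 when plain oil library 1 was dropped, 646 when plain oil library 2 was, and 3143 when ozonated oil library 1 was). The cause was not tested. Same-numbered libraries deviated together (r = 0.446 across 12675 genes, which are not independent). With 2 pairs and no label that ties the numbers to a batch, whether they share more than a number cannot be told. The median log2 change of the members ran from 0.50 to 0.72 with 1 library left out. The gain of the GABARAP branch in the family's reads, 9.31 percentage points (8.73 to 9.89 with 1 library left out), was 7.62 per transcript length. Gabarapl1 alone gained 14.3 percentage points of these reads, more than the branch as a whole, so the gain was not shared by the branch. A library left alone in its group is assumed to vary like the other group. Of the members, Map1lc3a and Calcoco1 had the largest counting error in their lowest library, a relative SD of 6.38% and 4.04%. Their plain oil libraries differed by more than that.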
